A study of Mus musculus with 4 samples.

Results

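The genes described here are 10 genes of serine synthesis, mitochondrial folate metabolism and the ATF4 stress response, taken by gene name from a table of 54446 genes. They were Phgdh, Psat1, Psph, Shmt2, Mthfd2, Asns, Atf4, Ddit3, Trib3 and Chac1. The set was picked because Phgdh, Trib3 and Chac1 were higher in Zeb1-CKO cells in the comparison reported here while the others did not pass the threshold. Genotype differences of these 10 genes are therefore given as values, without a test. The name Ddit3 stands beside 2 identifiers, so 11 rows carry a name of the set. The second Ddit3 row, ENSMUSG00000116429.1, stayed at or below 0.00226 FPKM in every library and was not used further.

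RNA was sequenced from endothelial cells, which line blood vessels, sorted from retinas of C57BL/6 mice at postnatal day 16. There were 2 libraries named Zeb1-CKO, whose genotype field reads Zeb1 knockdown, and 2 control libraries, each made from 100 sorted cells. Zeb1 encodes a zinc-finger repressor known for silencing epithelial genes, and the comparison addresses what changes in retinal endothelium when it is targeted. The labels name no Cre driver, no allele and no number of animals, so a spread between libraries may be technical and p-values measure only that spread. Values are FPKM, fragment numbers scaled to transcript length and to library size, so levels of different genes can be set side by side.

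Serine is made from the glycolytic intermediate 3-phosphoglycerate by PHGDH, PSAT1 and PSPH in turn, and mitochondrial SHMT2 and MTHFD2 then pass its side-chain carbon to folate. ATF4 is a transcription factor whose translation rises when the initiation factor eIF2 is phosphorylated, for example during amino acid shortage or stress in the endoplasmic reticulum. Its known targets include the serine enzymes, the asparagine synthetase gene Asns, Ddit3 (which encodes CHOP), Trib3 and Chac1. ATF4 is controlled largely at translation, so its mRNA level does not report its protein level.

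Promoter sequences of the 3 genes that passed the threshold, and of Asns as a well-known ATF4 target, are shown because ATF4 acts through a short element there. RefSeq promoter windows (build GRCm38.p6, 250 bases before to 50 after the transcription start) were found for all 10 genes, with 11 windows since Psat1 has 2. The C/EBP-ATF response element (CARE), the composite site bound by ATF4 with a C/EBP partner, was searched on both strands as TGATGNAA, and a relaxed form as TGNTGCAA. The relaxed form was chosen after the sequences were seen and overlaps the first where both patterns match. The E-box letters CAGGTG and CAGGTA, known to be bound by ZEB1, were searched as well, with CACGTG and CCAAT. In the runs given next, which stop before the RefSeq start, capitals mark a match to TGATGNAA, TGNTGCAA, CAGGTG or CAGGTA. The gene starts in the GENCODE M21 annotation lie within the Phgdh and Asns runs, at 98339990 and 7693254. The last bases of these runs are therefore inside the genes as annotated there.
Phgdh (chr3:98339970-98340219, minus strand): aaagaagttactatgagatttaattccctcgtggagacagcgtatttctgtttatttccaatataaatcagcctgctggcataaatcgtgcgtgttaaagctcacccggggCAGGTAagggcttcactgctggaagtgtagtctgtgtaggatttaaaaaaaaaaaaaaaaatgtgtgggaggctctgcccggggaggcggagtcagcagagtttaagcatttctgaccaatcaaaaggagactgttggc
Trib3 (chr2:152344061-152344310, minus strand): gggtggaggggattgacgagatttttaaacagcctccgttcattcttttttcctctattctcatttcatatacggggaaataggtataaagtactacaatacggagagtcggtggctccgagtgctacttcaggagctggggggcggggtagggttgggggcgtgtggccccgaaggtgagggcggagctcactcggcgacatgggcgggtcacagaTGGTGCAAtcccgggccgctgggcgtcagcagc
Chac1 (chr2:119350992-119351228, plus strand): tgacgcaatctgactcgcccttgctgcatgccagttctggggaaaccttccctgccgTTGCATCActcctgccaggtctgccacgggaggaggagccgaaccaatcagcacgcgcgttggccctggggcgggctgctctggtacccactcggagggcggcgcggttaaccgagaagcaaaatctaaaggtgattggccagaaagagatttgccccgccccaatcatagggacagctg
Asns (chr6:7693210-7693459, minus strand): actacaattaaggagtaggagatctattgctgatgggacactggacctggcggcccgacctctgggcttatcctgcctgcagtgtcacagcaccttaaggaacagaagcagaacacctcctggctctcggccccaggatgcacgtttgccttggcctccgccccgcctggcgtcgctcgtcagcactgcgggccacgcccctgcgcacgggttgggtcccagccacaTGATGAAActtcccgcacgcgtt

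TGATGNAA was present in the windows of 3 of the 10 genes, Asns, Trib3 and Chac1, against 3.97% of 32851 promoter windows and 2.18% of the 11813 windows of fitted genes. The match in Asns lay 23 to 16 bases before the RefSeq start, but inside the gene as annotated by GENCODE. That in Chac1 lay 193 to 186 bases before the RefSeq start on the opposite strand. That in Trib3 lay 15 to 22 bases after the RefSeq start, outside the run shown. TGNTGCAA matched Trib3 (33 to 26 bases before the start), Chac1 (at the same site as TGATGNAA) and 1 Psat1 window, against 3.22% of all windows. Either form was present in 4 of the 10 genes, against 6.20% of all windows. Phgdh held neither form in its window, and neither did Psph, Shmt2, Mthfd2, Atf4 or Ddit3. The GENCODE gene starts of Mthfd2 (83325908) and Psat1 (15947337) lie outside their RefSeq windows, so sequence at those starts was not searched. CAGGTA was present once in the Phgdh window, 139 to 134 bases before the start, and in 11.96% of all windows, while CAGGTG was present at 2 sites in the Atf4 window and in 20.2% of all windows. CACGTG matched none of the 11 windows, and CCAAT matched windows of 7 genes, against 37.4% of all windows. A match is a string of letters and not a measured site, and elements outside these 300 bases were not searched.

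**Figure D1:**
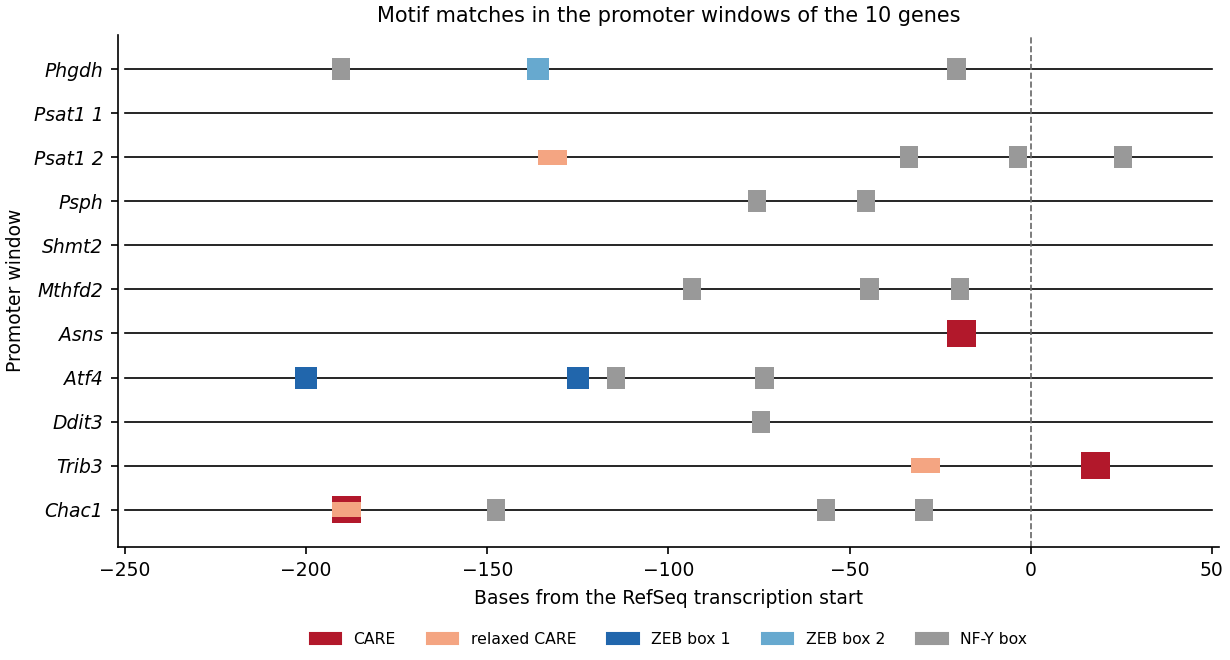
Matches to 5 motifs in the 11 promoter windows of the 10 genes, by distance in bases from the RefSeq start (dashed line). CARE stands for TGATGNAA, relaxed CARE for TGNTGCAA, and the ZEB boxes for CAGGTG and CAGGTA; CARE-type matches lie in Asns, Trib3, Chac1 and 1 of the 2 Psat1 windows, and none lies in Phgdh.

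Zeb1 itself, the targeted gene, had 8.66 and 7.07 FPKM in Zeb1-CKO cells, below its 10.7 and 11.1 FPKM in controls. The log2 difference of -0.43 (SE 0.15) had an adjusted p of 0.235 by limma, short of the threshold of 0.05, and a value per gene cannot separate a deleted exon from the rest of the transcript. From the steps between low FPKM values, depth was estimated at 21.9 and 16.7 M fragments in the Zeb1-CKO libraries and 20.5 and 11.2 M in the controls. None of 14 endothelial markers was at 0 in any library or passed limma's threshold, with 2 at an unadjusted p under 0.05, both higher. They summed to 4726 and 5131 FPKM in Zeb1-CKO cells and 4201 and 4978 FPKM in controls, with Cldn5, the main endothelial claudin, at 3133 and 3500 against 2692 and 3428 FPKM. Reads were amplified without molecular identifiers, so fragment numbers overstate independent molecules.

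PHGDH catalyses the first and committed step of serine synthesis, and its gene had the largest absolute difference in FPKM of the enzymes. Phgdh (chromosome 3, 98313170 to 98339990, mm10) reached 42.0 and 47.3 FPKM in Zeb1-CKO cells, against 10.3 and 9.68 FPKM in controls. The lowest Zeb1-CKO library was thus far above the highest control, and the mean was 44.7 ± 3.75 FPKM in Zeb1-CKO cells and 10.01 ± 0.460 FPKM in controls (SD, n = 2 each), a ratio of 4.47. On the log2(FPKM + 1) scale the difference was 2.05 (SE 0.14), the 86th highest of 13651 genes. In bulk libraries such a difference cannot tell more RNA per cell from more cells that carry the RNA.

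The other enzymes of the serine route did not share that difference. Psat1, for the phosphoserine aminotransferase (chromosome 19, 15904678 to 15947337), was at 5.56 and 5.88 FPKM in Zeb1-CKO cells and 6.24 and 7.63 FPKM in controls, a log2 difference of -0.23 (SE 0.16). The Zeb1-CKO values lay below the control values by a margin smaller than the distance between the controls. Psph, for the phosphatase of the last step (chromosome 5, 129765558 to 129787449), was at 5.51 and 5.10 FPKM in Zeb1-CKO cells and 4.86 and 4.04 FPKM in controls, a log2 difference of 0.21 (SE 0.16). The Psph value is uncertain, because 452 of its 4329 exon bases are shared with Cct6a on the opposite strand, a chaperonin subunit gene at 40.2 to 47.2 FPKM in these libraries, which do not mark strand.

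The ratio of these enzymes within a library does not depend on how libraries are scaled. Phgdh stood at 7.56 and 8.05 times the FPKM of Psat1 in Zeb1-CKO libraries, against 1.66 and 1.27 times in controls. Relative to Psph it stood at 7.63 and 9.29 in Zeb1-CKO libraries and 2.13 and 2.39 in controls. The ratio of Psat1 to Psph was 1.01 and 1.15 in Zeb1-CKO libraries and 1.28 and 1.89 in controls. The ratio between the 2 later enzymes thus differed far less between genotypes than the ratio of Phgdh to either of them. The set was picked because Phgdh passed the threshold and the later enzymes did not, so these ratios restate that choice.

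Phgdh also has many processed pseudogenes, among which a quantifier can split reads. Of 25 other annotated genes that aligned to its transcript over at least 200 bases, 8 were near-identical, with an alignment of 95% identity or more that spans 80% or more of 1 of the 2 transcripts. These 8 summed to 0.857 and 1.604 FPKM in Zeb1-CKO libraries and 0.440 and 0.892 FPKM in controls. The copy Gm7901, 98.7% identical, was at 0.601 and 1.26 FPKM in Zeb1-CKO libraries and 0.104 and 0.0976 FPKM in controls. With the 8 copies added to Phgdh, the log2 difference was 2.00. None of the other 9 genes had a near-identical copy.

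**Figure D2:**
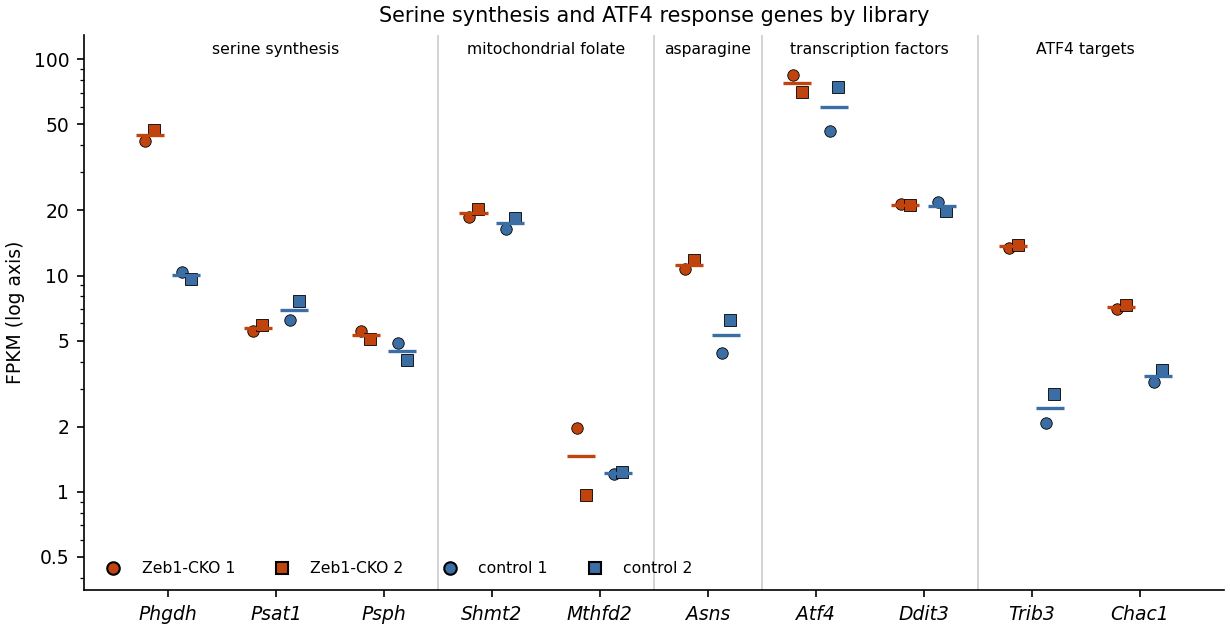
FPKM of the 10 genes in each library on a log axis, Zeb1-CKO (red) left of control (blue), with circles for library 1, squares for library 2 and a line at the mean. Phgdh, Trib3, Chac1 and Asns are separated between genotypes by more than the distance between libraries of 1 genotype, while Ddit3, Atf4 and Mthfd2 overlap.

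The mitochondrial folate genes were close between genotypes. Shmt2, for the serine hydroxymethyltransferase that splits serine into glycine and a folate-bound carbon (chromosome 10, 127517123 to 127522444), was at 18.7 and 20.3 FPKM in Zeb1-CKO cells and 16.4 and 18.4 FPKM in controls. The log2 difference was 0.16 (SE 0.14), and the lower Zeb1-CKO library exceeded the higher control by less than either pair of libraries differed. Shmt2 shares 32 of 3109 exon bases with Ndufa4l2 on the opposite strand. Mthfd2, for the dehydrogenase and cyclohydrolase that oxidises that carbon (chromosome 6, 83305691 to 83325908), was the lowest of the 10 genes, at 1.97 and 0.965 FPKM in Zeb1-CKO cells and 1.21 and 1.24 FPKM in controls. Its Zeb1-CKO libraries lay on either side of the controls, and at the estimated depth the values correspond to about 89.9 and 33.7 fragments in Zeb1-CKO libraries and 51.9 and 28.8 in controls.

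Asns, for asparagine synthetase (chromosome 6, 7675169 to 7693254), was at 10.7 and 11.8 FPKM in Zeb1-CKO cells and 4.38 and 6.23 FPKM in controls. The groups did not overlap, with means of 11.2 ± 0.774 FPKM in Zeb1-CKO cells and 5.31 ± 1.31 FPKM in controls (SD, n = 2 each) and a ratio of 2.11. Asns and Chac1, both members of the set, lay on either side of limma's threshold. The log2 difference was 0.97 (SE 0.19) for Asns, just outside it, and 0.88 (SE 0.15) for Chac1, just inside. Limma's adjusted p was 0.0613 for Asns and 0.0434 for Chac1. Because the set was picked on this comparison, these p-values only show where the line fell and are no test. Asns, which was not called, thus had the larger difference and the larger error.

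Of the transcription factors, Atf4 (chromosome 15, 80255184 to 80257541) was the most abundant of the 10 genes, at 84.3 and 70.7 FPKM in Zeb1-CKO cells and 46.7 and 74.1 FPKM in controls. Control 2 lay between the Zeb1-CKO libraries, so the groups overlapped, and the log2 difference of 0.39 (SE 0.24) was 0.06 without control 1 and 0.72 without control 2. Ddit3, for the stress factor CHOP (chromosome 10, 127290774 to 127296288), was at 21.4 and 21.1 FPKM in Zeb1-CKO cells and 21.95 and 19.9 FPKM in controls. Its Zeb1-CKO values lay inside the control range, and the log2 difference was 0.02 (SE 0.13). Ddit3 shares 68 of 1713 exon bases with the methionyl-tRNA synthetase gene Mars on the opposite strand, at 14.7 to 18.8 FPKM.

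Trib3 and Chac1, by contrast, were separated. TRIB3 is a pseudokinase induced by ATF4 and CHOP that in turn restrains ATF4 activity. Trib3 (chromosome 2, 152337422 to 152344032) was at 13.5 and 13.9 FPKM in Zeb1-CKO cells and 2.07 and 2.82 FPKM in controls. The Zeb1-CKO libraries were nearly equal and far above both controls, with means of 13.7 ± 0.300 FPKM in Zeb1-CKO cells and 2.44 ± 0.533 FPKM in controls (SD, n = 2 each), a ratio of 5.59 and a log2 difference of 2.098 (SE 0.17), the 77th highest of all. At the estimated depth this was about 597 and 471 fragments in Zeb1-CKO libraries and 86.0 and 63.8 in controls. CHAC1 is a gamma-glutamylcyclotransferase that breaks down glutathione. Chac1 (chromosome 2, 119351229 to 119354381) was at 7.02 and 7.27 FPKM in Zeb1-CKO cells and 3.23 and 3.64 FPKM in controls. Its means were 7.15 ± 0.172 FPKM in Zeb1-CKO cells and 3.44 ± 0.293 FPKM in controls (SD, n = 2 each), a ratio of 2.08.

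Trib3 and Chac1 were also set against Ddit3, and Asns against Atf4, within each library. The set was picked because Trib3 and Chac1 passed the threshold and Ddit3 did not. Their ratios to Ddit3 therefore restate that choice and are no separate result. Trib3 was at 0.628 and 0.656 times the FPKM of Ddit3 in Zeb1-CKO libraries, against 0.0942 and 0.142 in controls. For Chac1 to Ddit3 the ratio was 0.328 and 0.344 in Zeb1-CKO libraries and 0.147 and 0.183 in controls. The ratio of Asns to Atf4 was 0.127 and 0.166 in Zeb1-CKO libraries and 0.0940 and 0.0841 in controls. Trib3 was also above Chac1 in Zeb1-CKO libraries, at 1.92 and 1.91 times its FPKM, and below it in controls, at 0.640 and 0.774.

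**Figure D3:**
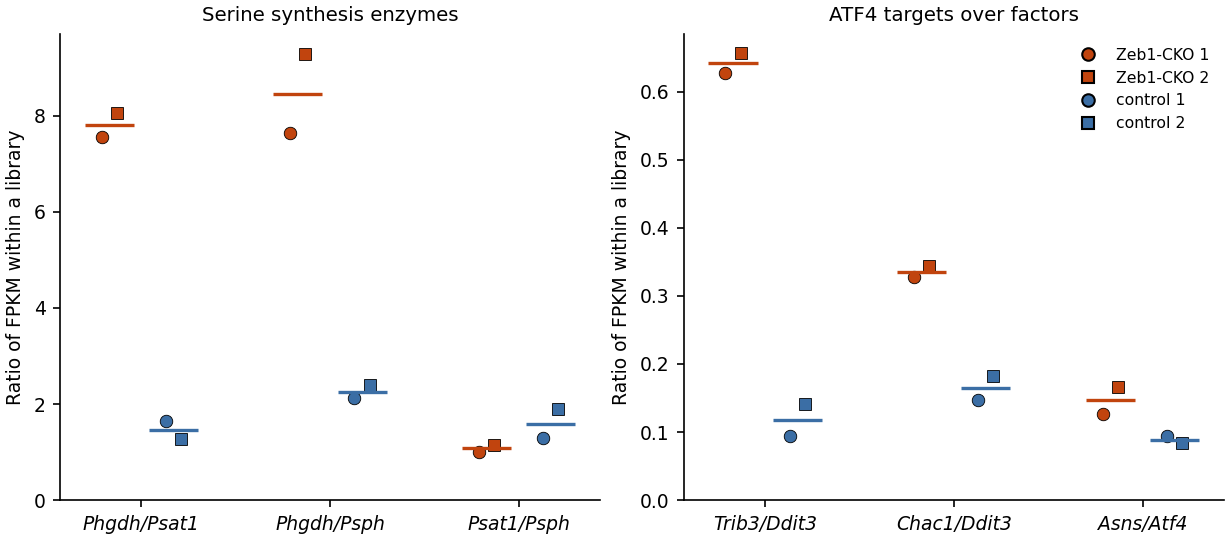
Ratios of FPKM of 2 genes within each library, Zeb1-CKO (red) left of control (blue), with a line at the mean. Phgdh to Psat1 lies at 7.56 and 8.05 in Zeb1-CKO libraries against 1.66 and 1.27 in controls. Trib3 to Ddit3 lies at 0.628 and 0.656 against 0.0942 and 0.142. The genes were picked on this genotype difference, so the ratios are a description only.

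The order of the levels differed between genotypes accordingly. In Zeb1-CKO cells it ran Atf4, Phgdh, Ddit3, Shmt2, Trib3, Asns, Chac1, Psat1, Psph and Mthfd2, and no neighbours overlapped between libraries. In controls it ran Atf4, Ddit3, Shmt2, Phgdh, Psat1, Asns, Psph, Chac1, Trib3 and Mthfd2, where only Asns and Psph overlapped. Phgdh thus stood 2nd in Zeb1-CKO cells and 4th in controls, and Trib3 stood 5th in Zeb1-CKO cells and 9th in controls.

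Of the 10 genes, 3 passed limma's adjusted threshold as higher and 0 as lower, while 2.23% of the 13651 fitted genes were called higher, 0.901% lower and 3.13% in either direction. In 6 of the 10, Phgdh, Psph, Shmt2, Asns, Trib3 and Chac1, both Zeb1-CKO libraries lay above both controls, and in 1, Psat1, below; among all fitted genes these shares were 27.1% and 22.3%. A positive log2 difference was found in 9 of the 10 and in 52.8% of all fitted genes. The median log2 difference was 0.30 over the 10 genes and 0.02 over all. Without either Zeb1-CKO library Phgdh alone passed, without control 1 Phgdh and Trib3, and without control 2 Phgdh, Trib3 and Asns. Since the set was chosen on this comparison, nothing is read from these shares.

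The annotation shows a further feature that the choice did not use. Translation of ATF4 and CHOP is known to be governed by reading frames ahead of the coding sequence. In the longest coding transcript, Atf4 held 3 upstream ATG codons, Ddit3 2, Psph 4, and Psat1 and Asns 1 each. Phgdh, Trib3, Chac1, Shmt2 and Mthfd2 held 0. At least 1 such codon was present in 5 of the 10 genes and in 52.3% of 10635 fitted genes with a coding transcript, with a median of 1. The 10 genes lie on 7 chromosomes. Trib3 and Chac1 both lie on chromosome 2, and Ddit3 and Shmt2 on chromosome 10.

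The wider pathway was described by 12 lists holding 193 other genes, of which 178 were fitted. Of these, 1 rose, 1 fell and 176 missed limma's adjusted threshold. Unadjusted p-values under 0.05 were found for 31 of them, or 17.4%, against 17.9% of all fitted genes, and 26 of the 31 were higher and 5 lower. Both Zeb1-CKO libraries lay above both controls in 37.1% of the 178, against 27.1% of all fitted genes, and below both in 16.3%, against 22.3%. A positive log2 difference was found in 110 of the 178, with a median of 0.07 beside the 0.02 of all genes. Osgin1, an NRF2 target that encodes a growth inhibitor induced by oxidative stress, rose to 7.66 and 9.27 FPKM in Zeb1-CKO cells, against 2.34 and 3.38 FPKM in controls, a log2 difference of 1.302 (SE 0.20) with limma's adjusted p of 0.0320. Ddit4, which encodes the mTORC1 inhibitor REDD1 and is induced by ATF4 and by hypoxia, fell to 17.05 and 18.9 FPKM in Zeb1-CKO cells, against 31.6 and 32.8 FPKM in controls, a log2 difference of -0.81 (SE 0.13) with limma's adjusted p of 0.0411. The call of Ddit4 ended without any 1 library, at log2 differences of -0.88 to -0.74, and that of Osgin1 ended without any 1 library except control 2, at 1.11 to 1.497 over the 4 fits.

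Ddit4 was the 1 call among 17 fitted genes of 22 other ATF4 targets and partners. Of these 17, 9 had a positive and 8 a negative log2 difference, with a median of 0.05 beside the 0.02 of all genes. Among 22 fitted genes of folate and glycine metabolism none passed by limma, 5 had an unadjusted p under 0.05, all higher, and the median was 0.23. In 9 of the 22 both Zeb1-CKO libraries lay above both controls, and in 2 below, against 27.1% and 22.3% of all fitted genes. The most abundant were Gcsh, the lipoyl carrier of glycine cleavage, at 21.2 and 27.1 FPKM in Zeb1-CKO cells and 28.1 and 22.4 FPKM in controls, and Dld, its dehydrogenase, at 23.1 and 17.8 FPKM against 19.0 and 19.3 FPKM. Both of these overlapped between genotypes.

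Amino acid carriers known as ATF4 targets gave 0 calls by limma among 10 fitted genes, with 2 higher and 2 lower at an unadjusted p under 0.05. Slc7a5, the light chain of the large neutral amino acid exchanger, was at 117 and 126 FPKM in Zeb1-CKO cells and 214 and 174 FPKM in controls (limma's adjusted p 0.0962). Its heavy chain gene Slc3a2 was at 470 and 469 FPKM in Zeb1-CKO cells and 488 and 525 FPKM in controls. Limma called none of the 21 genes of the tRNA synthetase list. Of these, 3 had an unadjusted p under 0.05, all higher, and 17 had a positive difference, with a list median of 0.21. In 12 of the 21 both Zeb1-CKO libraries lay above both controls, and in 2 below. Among all fitted genes these shares were 27.1% and 22.3%. Nars, for asparaginyl-tRNA synthetase, was at 47.2 and 45.4 FPKM in Zeb1-CKO cells and 40.3 and 37.2 FPKM in controls, and Kars, for lysyl-tRNA synthetase, at 33.2 and 30.8 FPKM against 31.0 and 32.3 FPKM.

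Upstream of ATF4, the list of 17 genes held the eIF2 kinases, regulators and relays of these kinases (Gcn1l1, Impact, Oma1 and Dele1), a phosphatase subunit, and subunits of eIF2 and eIF2B. Limma called none of them, and 2 had an unadjusted p under 0.05, both higher (median 0.07). Eif2b2 was at 50.3 and 53.6 FPKM in Zeb1-CKO cells and 35.8 and 34.1 FPKM in controls (limma's adjusted p 0.0905), and Eif2b5, for the catalytic subunit, at 18.3 and 27.3 FPKM against 22.6 and 21.8 FPKM. In the ATF6 and XBP1 branches of the unfolded protein response, limma called 0 of 23 fitted genes (median 0.04). Of these, 4 had an unadjusted p under 0.05, all higher. In 9 of the 23 both Zeb1-CKO libraries lay above both controls, and in 4 below, against 27.1% and 22.3% of all fitted genes. The disulfide isomerase gene Pdia3 was at 207 and 213 FPKM in Zeb1-CKO cells and 202 and 207 FPKM in controls, and the lectin chaperone gene Calr at 107 and 103 FPKM against 112 and 131 FPKM.

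Limma called 0 of 11 mitochondrial chaperones and proteases, with 1 at an unadjusted p under 0.05, which was higher, and a median of 0.26. In 6 of the 11 both Zeb1-CKO libraries lay above both controls, and in 0 below, against 27.1% and 22.3% of all fitted genes. Hspa9 was at 49.0 and 43.4 FPKM in Zeb1-CKO cells and 37.3 and 36.3 FPKM in controls, and Clpp at 31.6 and 39.7 FPKM against 37.6 and 26.7 FPKM. Glutathione genes, which act on the substrate of CHAC1, also gave 0 calls by limma among 12 fitted, with a median of -0.14. Of these, 1 had an unadjusted p under 0.05 and was higher. The peroxidase genes Gpx1 and Gpx4 were the most abundant, Gpx1 at 175 and 178 FPKM in Zeb1-CKO cells and 225 and 189 FPKM in controls, and Gpx4 at 117 and 148 FPKM against 163 and 128 FPKM. Of 12 NRF2 genes only Osgin1 passed (median 0.08).

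Among 12 other factors known to bear on serine synthesis, limma called 0, and 1 had an unadjusted p under 0.05. That was Pkm, for the pyruvate kinase that draws on the glycolytic flux from which serine is made, at 324 and 359 FPKM in Zeb1-CKO cells and 215 and 195 FPKM in controls (limma's adjusted p 0.0575). Hif1a was at 45.7 and 42.3 FPKM in Zeb1-CKO cells and 47.3 and 48.8 FPKM in controls. Early response and heat-shock genes, which are known to rise while tissue is dissociated, gave 0 calls by limma among 16 fitted (median -0.12). Of these, 2 had an unadjusted p under 0.05, 1 higher and 1 lower. Fos was at 2064 and 1914 FPKM in Zeb1-CKO cells and 2077 and 2064 FPKM in controls, and Btg2 at 680 and 650 FPKM against 765 and 773 FPKM.

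**Figure D4:**
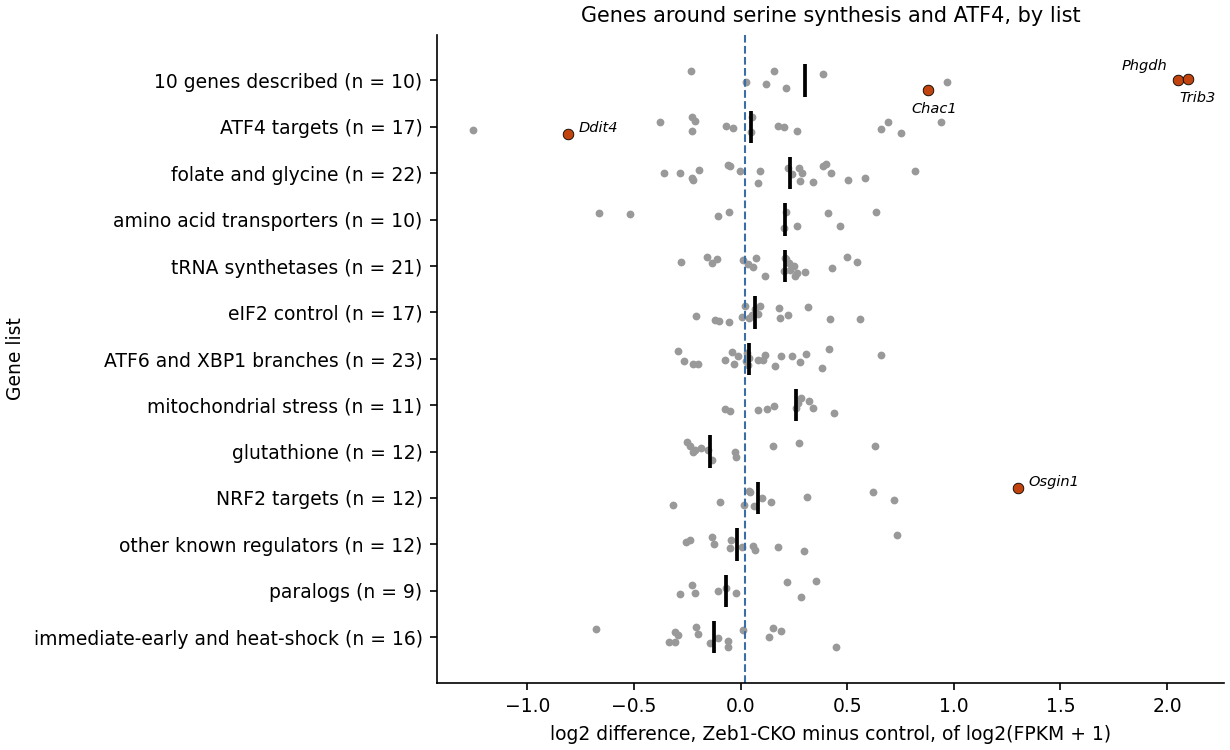
Log2 differences (Zeb1-CKO minus control, of log2(FPKM + 1)) of the 10 genes and of 12 lists of related genes, 1 point a gene, with list medians as black lines and the median of all fitted genes (0.02) as a dashed line. Red points passed limma's threshold over all genes; beside Phgdh, Trib3 and Chac1 these were Osgin1 and Ddit4.

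Limma called none of the 9 listed paralogs and relatives of the 10 genes, with 0 at an unadjusted p under 0.05. The tribbles genes Trib1 and Trib2, relatives of Trib3, were far more abundant than it in controls. Trib1 was at 42.0 and 41.1 FPKM in Zeb1-CKO cells and 36.9 and 34.4 FPKM in controls, and Trib2 at 30.2 and 25.5 FPKM against 26.6 and 19.2 FPKM. Chac2, the steady-state relative of Chac1, was at 4.94 and 3.22 FPKM in Zeb1-CKO cells and 2.63 and 3.23 FPKM in controls. The cytosolic Shmt1 was at 1.66 and 1.31 FPKM against 2.19 and 1.64 FPKM, and Mthfd2l at 0.786 and 1.28 FPKM against 1.34 and 1.57 FPKM. Atf5 and Cebpg, bZIP relatives and partners in this response, had means of 2.57 and 4.93 FPKM in Zeb1-CKO cells, against 2.74 and 5.79 FPKM in controls. Ctbp1 and Ctbp2, corepressor genes of the same dehydrogenase fold as PHGDH and known partners of ZEB1, had means of 15.5 and 8.45 FPKM in Zeb1-CKO cells, against 15.8 and 9.06 FPKM in controls. Their values overlapped between genotypes in both cases.

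Phgdh is known to be abundant in astrocytes and Müller glia, so markers of other retinal cells were measured in the same libraries. The 14 glial markers summed to 442 and 497 FPKM in Zeb1-CKO libraries and 392 and 423 FPKM in controls. Limma called none of the 11 fitted; 9 had a positive difference (median 0.22), and 4 had an unadjusted p under 0.05, 3 higher and 1 lower. Apoe was at 134 and 88.9 FPKM in Zeb1-CKO libraries and 109 and 145 FPKM in controls, and Dkk3 at 92.2 and 107 FPKM against 67.2 and 67.8 FPKM. Of defining markers, the Müller glial gene Rlbp1 was at 19.8 and 26.2 FPKM against 20.6 and 20.6 FPKM, Glul at 44.9 and 45.3 FPKM against 71.9 and 64.8 FPKM, and Gfap at 68.2 and 137 FPKM against 56.7 and 60.6 FPKM. Aqp4 was listed at 0 in both controls and Kcnj10 at 0 in control 1, and these with Abca8a stayed under 1 FPKM in every library. Of the 11 fitted markers, 5 lay higher in both Zeb1-CKO libraries than in either control and 1, Glul, lower. The part of glial RNA in the Phgdh difference was not tested.

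Markers of mural and blood cells had lower values in Zeb1-CKO libraries. The 13 markers of pericytes and smooth muscle summed to 1766 and 1954 FPKM in Zeb1-CKO libraries and 2688 and 2204 FPKM in controls. All 12 fitted markers were lower in both Zeb1-CKO libraries than in either control (median log2 difference -0.38), against 22.3% of all fitted genes. Of the 12, 8 had an unadjusted p under 0.05, and limma called 1, Tagln. The most abundant were Rgs5, at 1201 and 1262 FPKM in Zeb1-CKO libraries and 1673 and 1348 FPKM in controls, and Myl9, at 173 and 232 FPKM against 391 and 283 FPKM. The 7 red-cell genes summed to 746 and 1410 FPKM in Zeb1-CKO libraries and 2730 and 3299 FPKM in controls. Limma called 0 of the 5 fitted, though all 5 had an unadjusted p under 0.05 and lower values in Zeb1-CKO libraries. The globin genes Hba-a1, at 270 and 584 FPKM in Zeb1-CKO libraries and 1229 and 1213 FPKM in controls, and Hbb-bs, at 330 and 512 FPKM against 894 and 1235 FPKM, led that list.

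The 12 microglial markers summed to 23.0 and 10.8 FPKM in Zeb1-CKO libraries and 26.8 and 82.5 FPKM in controls. Limma called 0 of the 7 fitted, 4 of which had an unadjusted p under 0.05, all lower. Lyz2 was at 14.1 and 1.48 FPKM in Zeb1-CKO libraries and 9.27 and 18.3 FPKM in controls, and Tyrobp at 1.86 and 1.67 FPKM against 5.12 and 19.1 FPKM. Photoreceptor markers summed to 63.2 and 72.7 FPKM in Zeb1-CKO libraries and 115 and 13.7 FPKM in controls, with 0 of 10 fitted called by limma and 0 at an unadjusted p under 0.05. Sag, for the arrestin of rods, was at 9.21 and 11.7 FPKM in Zeb1-CKO libraries and 15.7 and 1.87 FPKM in controls. Inner neuron markers summed to 39.0 and 79.7 FPKM in Zeb1-CKO libraries and 44.8 and 44.1 FPKM in controls. Limma called 0 of the 7 fitted, and 2 had an unadjusted p under 0.05, both higher. Rbpms was at 16.4 and 26.1 FPKM in Zeb1-CKO libraries and 19.5 and 21.8 FPKM in controls, and Sncg at 9.10 and 17.2 FPKM against 13.9 and 14.2 FPKM. Control 2 thus stood apart from control 1 in microglial and photoreceptor markers, and the part of these cells in the differences of the 10 genes was not tested. Phgdh and Trib3 differed by 2.09 and 1.94 without control 1 and by 2.01 and 2.26 without control 2.

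**Figure D5:**
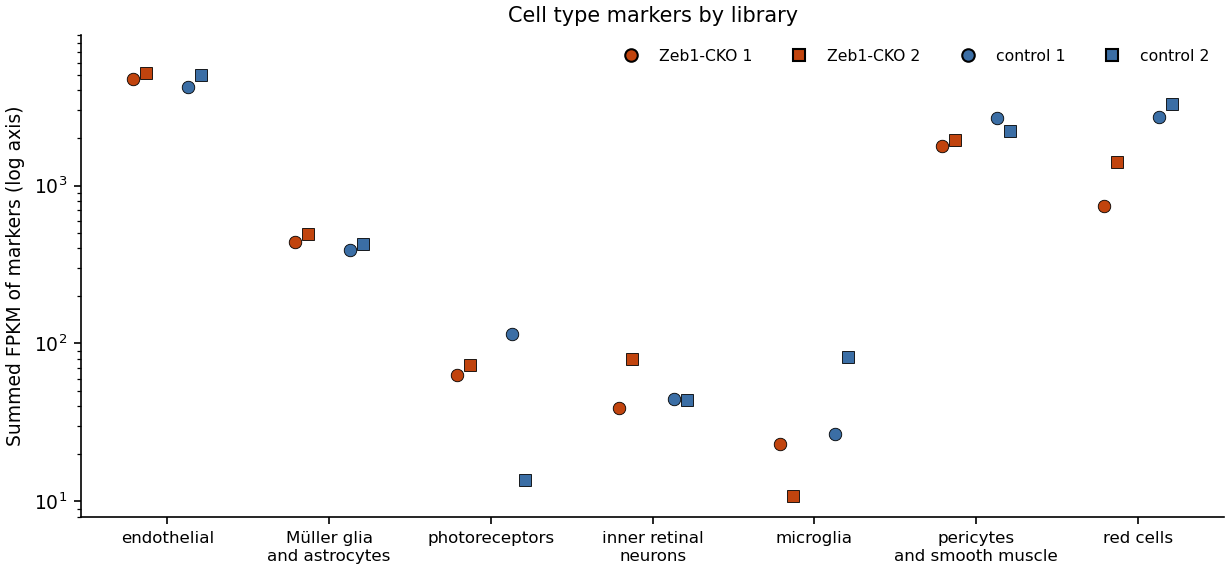
Summed FPKM of marker genes of 7 cell types in each library on a log axis, Zeb1-CKO (red) left of control (blue), circles for library 1 and squares for library 2. Endothelial markers have the largest sums, at 4726 and 5131 FPKM in Zeb1-CKO libraries and 4201 and 4978 FPKM in controls. Most of each sum is Cldn5, at 3133 and 3500 FPKM in Zeb1-CKO libraries and 2692 and 3428 FPKM in controls. The other endothelial markers sum to less than the pericyte and smooth muscle markers in every library. Glial markers lie between 392 and 497 FPKM in all 4 libraries.

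The genes with values nearest to those of Phgdh, Trib3 or Chac1 were found by the Euclidean distance between mean-centred log2(FPKM + 1) values over the 4 libraries. Nearest to Phgdh were Hjurp, the chaperone of the centromeric histone CENP-A (distance 0.112), Igsf9 (0.159) and Ttc39a (0.165). Hjurp was at 22.8 and 27.3 FPKM in Zeb1-CKO libraries and 5.96 and 5.07 FPKM in controls. Nearest to Trib3 were Fosl1, which encodes the AP-1 subunit FRA-1 (0.101), S100a14 (0.169) and Ttc39a (0.198), with Fosl1 at 18.8 and 19.8 FPKM in Zeb1-CKO libraries and 2.95 and 3.97 FPKM in controls. Nearest to Chac1 were Slc1a1, the neuronal-type glutamate and cysteine transporter (0.0486), Carmil1 (0.0628) and Tmsb15b1 (0.0629). Slc1a1 was at 2.98 and 2.98 FPKM in Zeb1-CKO libraries and 1.04 and 1.32 FPKM in controls, and Tmsb15b1 is uncertain because it shares exon bases with 2 neighbours of its family. Igsf9, Ttc39a and S100a14 lay between 3.15 and 4.18 FPKM in Zeb1-CKO libraries and did not exceed 0.179 FPKM in controls. They reached the filter's mean of 1 FPKM only through the Zeb1-CKO libraries. Their FPKM ratios were 30.0 for Igsf9, 25.7 for Ttc39a and 59.1 for S100a14. These ratios are imprecise because the control values are near 0, at 0.00556 and 0.111 FPKM for S100a14. The pseudocount of 1 compresses log2 differences of genes near 0, so these genes can lie near Phgdh or Trib3 despite unlike FPKM ratios. With 4 libraries such likeness is a description of the genotype difference and little else.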

How the data were processed

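RNA from sorted retinal endothelial cells was sequenced in 4 libraries (2 Zeb1-CKO, 2 control). Per the labels' protocols, cDNA was amplified from lysates of 100 cells with the SMART-Seq v4 kit, which does not mark strand, and read in pairs of 150 bases. Per the submitters' processing notes, Trimmomatic 0.36, HISAT2 2.1.0 and StringTie 1.3.3 were used with build mm10; their settings and the annotation release are not stated there. FPKM for 54446 genes were made and deposited by the authors; the unit was read from the values and tools, since the header names none. All 4 columns were matched to a sample by name.

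Values were analysed as log2(FPKM + 1), so a difference understates the change of low genes. A limma 3.58.1 model (R 4.3.3) of genotype alone, with an intensity trend, was fitted to 13651 genes averaging 1 FPKM or more, with Benjamini-Hochberg adjustment over all of them and a threshold of 0.05; it was tested on simulated data. Count tests do not apply to FPKM and were left out. The 10 genes and the lists were chosen with earlier results of these data known. Genes named are the 10, Zeb1, up to 4 called genes of each list by smallest p or else the 2 most abundant, all paralogs, the 2 most abundant markers of each cell type, the 3 nearest genes to Phgdh, Trib3 and Chac1 among fitted genes that are no predicted genes or pseudogenes, and copies or overlapping genes. Rlbp1, Glul, Gfap, Aqp4, Kcnj10, Abca8a, Atf3, Txnip, Cebpb, Amt and Tagln were added after their values were seen, and 1 gene that the rule names is not reported here. GENCODE M21 (GRCm38, the assembly of mm10) holds 53229 of the versioned identifiers, all with the same start, and spans are from there. Promoters are RefSeq's.

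Depth was read from the ladder of low values in genes with 1 transcript longer than 600 bases, where 20.5% to 25.4% of low values lay within 0.02 of a whole step (4% by chance alone). A step, taken as 1 fragment, is worth 0.0228 to 0.0448 FPKM for a transcript of 2000 bases. All 15 housekeeping genes checked were above 0 in all 4 libraries. Copies were sought with BLAST 2.17.0. Alternatives were other pseudocounts (0.1, 0.5), filters, scalings, no trend, the replicate number as a block and each library left out. Figures were drawn with matplotlib 3.10.9.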

Additional observations from a re-analysis of the deposited data

How the results depend on the processing

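The 10 genes were chosen on this comparison, so passes and adjusted p in their refits describe dependence on settings and are no test. Phgdh kept its direction in all 13 refits, at log2 differences of 1.97 to 2.15. It kept its side of limma's threshold in the refits with all 4 libraries. Trib3 kept its direction at 1.94 to 2.45, and passed in 11 of 13; its adjusted p was 0.0574 without Zeb1-CKO replicate 1 and 0.0560 without Zeb1-CKO replicate 2. Chac1 kept its direction at 0.81 to 1.04 but passed in 3 of 13, with adjusted p up to 0.211, and Asns, at 0.76 to 1.18, passed in 1, without control replicate 2 (adjusted p 0.0445). Atf4 ranged from 0.06 without control replicate 1 to 0.72 without control replicate 2. The sign of Mthfd2 changed in 1 refit and that of Ddit3 in 3. Of the 10 genes, 1 to 3 were called higher when 1 library was left out, with 1 in each fit that lacks a Zeb1-CKO library. The number of genes whose Zeb1-CKO libraries lay above both controls, not recomputed with a library left out, was 6 under the other settings except for 5 with a filter at 5 FPKM, which removes Psph, and 5 after upper quartile rescaling.

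Over all genes, 304 were called higher and 123 lower. Leaving out 1 library gave 48 to 238 higher and 15 to 64 lower. Without a filter 70 were higher and 15 lower, and with a filter at 5 FPKM 169 were higher. In the pathway lists, where 1 gene was higher and 1 lower, leaving out 1 library gave 0 to 1 higher and 0 lower, no filter gave 0 and 0, and a fit without a trend gave 0 lower. Over these and the other settings except the blocks, the gene called higher was Osgin1 and the gene called lower Ddit4 wherever there was a call.

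The replicate numbers are shared between genotypes, but nothing states that they pair libraries, and deviations of same-numbered libraries had a correlation of -0.118 across fitted genes. With the replicate block 155 genes were called higher and 38 lower, Phgdh and Trib3 were called, and in the pathway lists 1 gene was higher and 0 lower. Crossed pairing, chosen after seeing the data, gave 306 higher and 149 lower, with 4 higher and 2 lower in the pathway lists. The cause of these moves was not tested; fits with fewer libraries or with a block have fewer residual degrees of freedom, and a lone library is assumed to vary like the other genotype's. Low values of control 2, the shallowest library, are the least precise.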

Other observations

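Some genes of the ATF4 and folate lists had values apart between genotypes without passing limma's threshold, and were picked after their values were seen. Atf3, an ATF4-induced stress factor, was at 747 and 574 FPKM in Zeb1-CKO libraries and 395 and 415 FPKM in controls (log2 difference 0.69, limma's adjusted p 0.107). Txnip, which encodes a thioredoxin-binding inhibitor of glucose uptake, was at 72.4 and 55.7 FPKM in Zeb1-CKO libraries and 31.0 and 34.4 FPKM in controls (0.94, adjusted p 0.0530 by limma). Amt, for the aminomethyltransferase of glycine cleavage, was at 18.4 and 21.3 FPKM in Zeb1-CKO libraries and 11.7 and 9.96 FPKM in controls (0.82, adjusted p 0.0576 by limma). Cebpb, for a C/EBP partner of ATF4, ran the other way, at 13.5 and 8.28 FPKM in Zeb1-CKO libraries and 22.1 and 32.1 FPKM in controls (-1.26, adjusted p 0.0815 by limma).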
